A study of Homo sapiens with 4 samples.

Results

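The genes for the cyclins and kinases that drive cells out of G1 were examined for binding of a pair of transcription factors in DU145 cells, a line derived from a human prostate cancer: the D-type cyclin genes CCND1, CCND2 and CCND3, the kinase genes CDK4 and CDK6, the E-type cyclin genes CCNE1 and CCNE2, and the phosphatase gene CDC25A. These 8 were taken by name out of 19974 protein-coding genes on chromosomes 1 to 22 and X, and a peak was counted at a gene when its midpoint lay inside the gene or within 50 kb of it. The data came from chromatin immunoprecipitation and sequencing (ChIP-seq) of ATOH8 with a Flag tag and of TCF3 with a Myc tag. Both belong to the basic helix-loop-helix (bHLH) class, and TCF3 is one of its broadly expressed E proteins. Each factor had 1 immunoprecipitation library and 1 input library, all from DU145 cells fixed with 1% formaldehyde for 10 min, so there were 4 libraries and no replicates. One peak list was held per immunoprecipitation, with 4997 ATOH8 peaks and 11390 TCF3 peaks. The sources used here do not say how the tagged proteins were expressed.

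D-type cyclins pair with CDK4 and CDK6, and E-type cyclins pair with CDK2. Both kinds of kinase phosphorylate the RB family of pocket proteins, which then release E2F factors and allow S phase genes to be transcribed. CDC25A removes inhibitory phosphates from CDK2. DU145 cells are known to lack a functional RB protein, which limits them as a model of this pathway. Factors of the bHLH class bind DNA as dimers at E-boxes, short words written CANNTG in which N is any base. Peak lists show where DNA was recovered and measure neither transcription nor protein.

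Every one of the 8 genes had a listed peak of at least one factor inside it or within 50 kb. Over all protein-coding genes that share was 69.2%. CCND1, CDK4 and CDK6 had peaks of both. ATOH8 peaks lay at 5 of 8 genes, CCND1, CCND3, CDK4, CDK6 and CDC25A, against 43.6% of all protein-coding genes. TCF3 peaks lay at 6 of 8, CCND1, CCND2, CDK4, CDK6, CCNE1 and CCNE2, against 53.7% of all protein-coding genes. The E-type cyclin genes and CCND2 had TCF3 peaks and no listed ATOH8 peak, and CCND3 and CDC25A had ATOH8 peaks and no listed TCF3 peak. Of all 19974 protein-coding genes, 8706 had ATOH8 peaks and 10720 had TCF3 peaks, and 5612 had both. The rest of the genes with each factor had that factor only, so this split is description only. Peaks of both factors lay at 3 of 8 genes, against 28.1% of all protein-coding genes, and 0 of 8 had neither, against 30.8%. With 8 genes and 1 library per factor, these shares have no error estimate and no test was made.

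**Figure D1:**
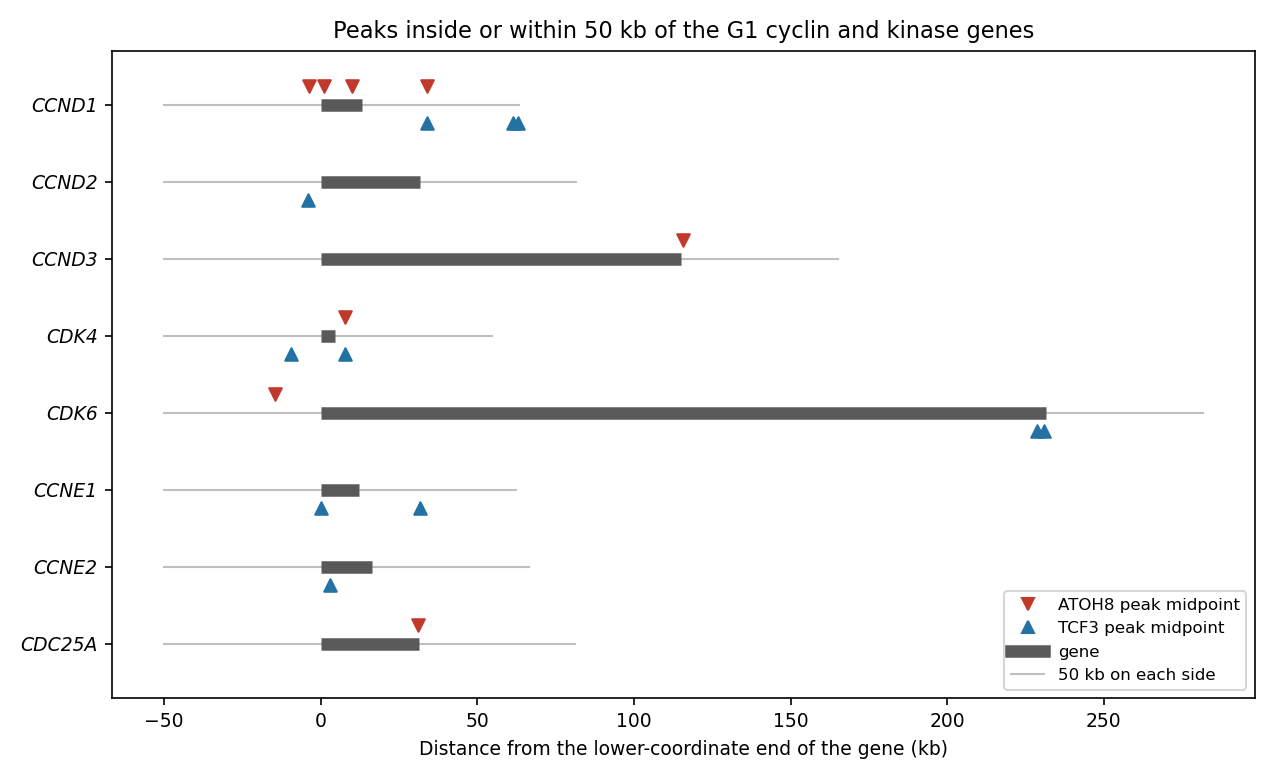
Midpoints of the ATOH8 (upper triangles) and TCF3 (lower triangles) peaks at each of the 8 genes, in kb from the lower-coordinate end of the gene; the dark bar is the gene and the thin line the 50 kb on each side. CCND1 has 4 ATOH8 peaks, CDK6 has both TCF3 peaks at its higher-coordinate end, and a pair of peaks coincides beside CCND1 and beside CDK4.

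The genomic sequence at a gene start is shown for the genes on which the results turn. RefSeq start windows of GRCh38.p14 (300 bases around a start) were matched for 5 of the 8 genes, CCND3, CDK4, CDK6, CCNE1 and CDC25A. The window of CCNE1 and that of the outer CDK6 start lay wholly inside a TCF3 peak, while that of the inner CDK6 start was in no listed peak. The outer one is shown for CDK6. That of CDC25A reached 29 bases into an ATOH8 peak, and that of CDK4 was in no listed peak. MARCHF9, the neighbour of CDK4, had 278 bases of its window in an ATOH8 peak and 11 in a TCF3 peak. Each is printed 5′ to 3′ on the gene's own strand, and capitals mark every E-box.
CCNE1 (chr19:29811741-29812040, plus strand): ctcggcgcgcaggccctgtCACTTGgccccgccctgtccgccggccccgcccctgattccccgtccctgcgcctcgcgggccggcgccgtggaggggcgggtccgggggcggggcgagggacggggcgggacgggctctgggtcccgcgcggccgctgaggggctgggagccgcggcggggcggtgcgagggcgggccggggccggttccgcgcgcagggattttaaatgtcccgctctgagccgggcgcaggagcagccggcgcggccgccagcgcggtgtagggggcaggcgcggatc
CDK6 (chr7:92836524-92836823, minus strand): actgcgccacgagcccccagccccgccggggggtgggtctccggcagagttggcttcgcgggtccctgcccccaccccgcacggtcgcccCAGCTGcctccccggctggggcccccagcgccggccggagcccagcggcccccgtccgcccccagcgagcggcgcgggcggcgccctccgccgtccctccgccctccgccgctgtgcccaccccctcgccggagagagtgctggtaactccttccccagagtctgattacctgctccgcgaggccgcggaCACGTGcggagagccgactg
CDC25A (chr3:48188368-48188667, minus strand): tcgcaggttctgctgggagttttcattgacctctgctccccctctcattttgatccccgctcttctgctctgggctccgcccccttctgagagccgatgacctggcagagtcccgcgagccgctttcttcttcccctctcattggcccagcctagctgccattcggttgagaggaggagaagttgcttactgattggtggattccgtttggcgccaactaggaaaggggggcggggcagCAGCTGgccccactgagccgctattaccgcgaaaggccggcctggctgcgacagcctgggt
CDK4 (chr12:57752261-57752560, minus strand): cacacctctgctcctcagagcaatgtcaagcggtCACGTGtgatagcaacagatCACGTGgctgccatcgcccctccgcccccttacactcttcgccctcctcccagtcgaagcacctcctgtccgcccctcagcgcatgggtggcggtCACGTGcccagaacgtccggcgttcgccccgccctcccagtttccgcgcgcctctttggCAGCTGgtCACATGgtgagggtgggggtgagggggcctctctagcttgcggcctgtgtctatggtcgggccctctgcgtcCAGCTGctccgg
MARCHF9 (chr12:57754853-57755152, plus strand): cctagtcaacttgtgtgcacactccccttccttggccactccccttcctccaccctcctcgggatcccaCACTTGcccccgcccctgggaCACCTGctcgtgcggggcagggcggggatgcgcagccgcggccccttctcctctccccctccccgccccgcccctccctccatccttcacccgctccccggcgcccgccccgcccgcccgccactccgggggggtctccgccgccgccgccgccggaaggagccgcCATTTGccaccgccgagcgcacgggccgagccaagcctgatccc

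The CDK4 window was the richest in E-boxes among these. It held 6, of which 3 were CACGTG, 2 were CAGCTG and 1 was CACATG, and only 0.615% of the 35116 RefSeq windows held 6 or more. The CACGTG words began 216, 196 and 101 bases before the start. CACGTG is the E-box form that MYC binds, and CDK4 is a known MYC target. The CDK6 window held CAGCTG, 160 bases before the start, and CACGTG, 30 bases after it. CDC25A held 1 CAGCTG that began 11 bases before the start, outside the 29 bases in the ATOH8 peak, and CCNE1 held 1 CACTTG 231 bases before the start. MARCHF9 held 3 E-boxes, 1 of them CACCTG and none of them CAGCTG or CACGTG. Of all windows, 68.7% held a CANNTG word, 17.9% held CAGCTG, 7.26% held CACGTG and 20.6% held CAGGTG or its reverse complement CACCTG. The searches for CANNTG, for the word CAGCTG and for the word CACGTG read the same on both strands, and each specific word is also counted as a CANNTG. Among windows wholly inside an ATOH8 peak, 66.1% held a CANNTG word, 26% held CAGCTG, 11.4% held CACGTG and 31.3% held CAGGTG or CACCTG. Among windows wholly inside a TCF3 peak, 55.6% held a CANNTG word, 16.3% held CAGCTG, 9.07% held CACGTG and 21.5% held CAGGTG or CACCTG. A matching word describes the letters of a window and shows no binding.

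**Figure D2:**
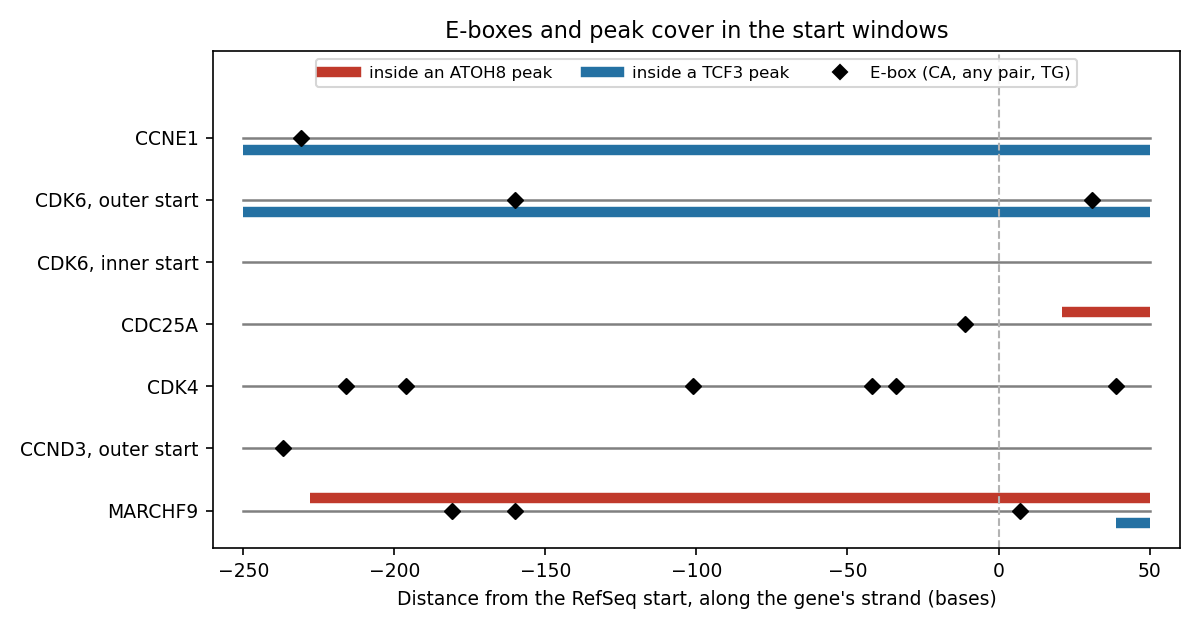
E-boxes (diamonds) and the parts covered by ATOH8 (thick line above) or TCF3 peaks (thick line below) in start windows of 5 of the genes and of MARCHF9, in bases from the RefSeq start (dashed line). The windows of CCNE1 and of the outer CDK6 start are covered by TCF3 throughout, while the CDK4 window holds 6 E-boxes and no peak.

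Among the D-type cyclins, CCND1 (chromosome 11, 69641156 to 69654474, hg38) had the most ATOH8 peaks of the 8 genes. It had 4 within 50 kb, and only 2.49% of all protein-coding genes had as many. The widest ran from 69640672 to 69643930 and crossed the lower-coordinate end of the gene, reaching 2774 bp into it. It was 3258 bp wide, and 0.2% of all ATOH8 peaks were wider. Its score of 93 ranked 2099th of 4997 (tied scores share the best rank) and exceeded 57.3% of the list, so it stood out by width more than by score. The score is the authors' own value per peak and is used only within a list. The other ATOH8 peak inside CCND1 had a score of 57, and one 3892 bp below the lower-coordinate end had 58. Both were near the bottom of the list, above 11.5% and 14.8% of its peaks.

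No TCF3 peak was listed inside CCND1. The fourth ATOH8 peak, with score 86, lay from 69674803 to 69675334, inside the neighbouring gene LTO1 and 20.6 kb from CCND1. It covered all of a TCF3 peak of 465 bp with score 53 (69674827 to 69675292), and their midpoints were 9 bp apart. The RefSeq start of LTO1 on the minus strand lay 285 bp from the ATOH8 midpoint. A pair of other TCF3 peaks, with scores 59 and 66, lay 48.0 and 49.7 kb from CCND1, at the edge of the window. The peak of score 59 was inside FGF19 and that of score 66 crossed the higher-coordinate end of FGF19.

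CCND2 (chromosome 12, 4273762 to 4305353) had 1 TCF3 peak, with score 89, above 71.0% of the TCF3 list. It ran from 4269127 to 4270037, inside the antisense gene CCND2-AS1, with its midpoint 4180 bp below the lower-coordinate end of CCND2. The nearest listed ATOH8 peak was 2060 kb away, the longest such distance among the 8 genes.

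CCND3 (chromosome 6, 41934933 to 42050035) had 1 ATOH8 peak, and its score of 129 was the highest of any ATOH8 peak at these genes (rank 1018, above 79.1% of the list). The peak ran from 42050321 to 42050784. It began 286 bp beyond the higher-coordinate end of CCND3 and held the lower-coordinate end of TAF8, a gene for a subunit of the general transcription factor TFIID. Its midpoint was inside TAF8, 517 bp beyond the higher-coordinate end of CCND3, which is on the minus strand. It was 1864 bp upstream of the nearest CCND3 start with a matched window, which lies inside the gene. The nearest TCF3 peak was 200 kb from CCND3.

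The kinase genes differed in where their peaks lay. CDK4 (chromosome 12, 57747727 to 57752310) had no listed peak inside it. An ATOH8 peak with score 110, above 69.6% of its list, ran from 57754875 to 57755970, and its midpoint was 3112 bp upstream of the CDK4 start. It shared 816 bp with a TCF3 peak of score 52 (57755142 to 57755958), which it covered completely. The ATOH8 peak held the start of MARCHF9, which encodes a membrane-bound ubiquitin ligase, and both midpoints lay inside MARCHF9. The other TCF3 peak, also with score 52, lay inside AGAP2, 9544 bp from CDK4, and held an inner RefSeq start of AGAP2. With 10 protein-coding genes touching it, the CDK4 window was the most crowded of the 8, which had a median of 3, the same as over all protein-coding genes.

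CDK6 (chromosome 7, 92604921 to 92836573) had the highest TCF3 score of the 8 genes. That peak, with score 131 and rank 1234 of 11390, exceeded 87.6% of the TCF3 list. It ran from 92834698 to 92836906 across the outer RefSeq start of CDK6, which is at the higher-coordinate end because the gene is on the minus strand. It also held the start of the antisense gene CDK6-AS1. It was 2208 bp wide, and 4.90% of TCF3 peaks were wider. Another TCF3 peak, with score 79, lay 833 bp further into the gene and ended 94 bp from the inner CDK6 start, without reaching it. The only ATOH8 peak in the window had a score of 65 and lay at the far end, 14.8 kb below the gene, where it held both RefSeq starts of FAM133B. The factors' peaks at CDK6 were thus at least 242769 bp apart.

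The E-type cyclins had TCF3 peaks of very unequal score. At CCNE1 (chromosome 19, 29811991 to 29824312) a TCF3 peak ran from 29811400 to 29812884 over the start, with its midpoint 151 bp inside the gene. Its score of 110 ranked 1794th and exceeded 82.0% of the TCF3 list. The other, with score 48, lay 19.2 kb beyond the gene, in no annotated gene. CCNE1 was the only protein-coding gene touching its window. CCNE2 (chromosome 8, 94880224 to 94896693) held a TCF3 peak of score 36, from 94882982 to 94883368, and only 0.0263% of the TCF3 list scored lower. The lowest score in the list was 35, so this peak was at the edge of what was listed.

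The 50 kb limit decided some of these counts. The TCF3 peak nearest to it inside was the one 49.7 kb from CCND1, with score 66. Just outside, 52.2 kb from CCNE2, lay a TCF3 peak inside TP53INP1 and NDUFAF6 with score 267 and rank 68, above 99.2% of the list. The nearest ATOH8 peak to CCNE2, with score 115, was 56.8 kb away and crossed an end of INTS8, and that of CCNE1, with score 83, was 96.5 kb away at C19orf12.

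CDC25A (chromosome 3, 48157146 to 48188417) had 1 ATOH8 peak, inside the gene at its start. It ran from 48187808 to 48188396 and ended 21 bp short of the RefSeq start, which is on the minus strand, with its midpoint 315 bp downstream. The score of 74 exceeded 39.7% of the ATOH8 list. No TCF3 peak was listed nearer than 474 kb.

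**Figure D3:**
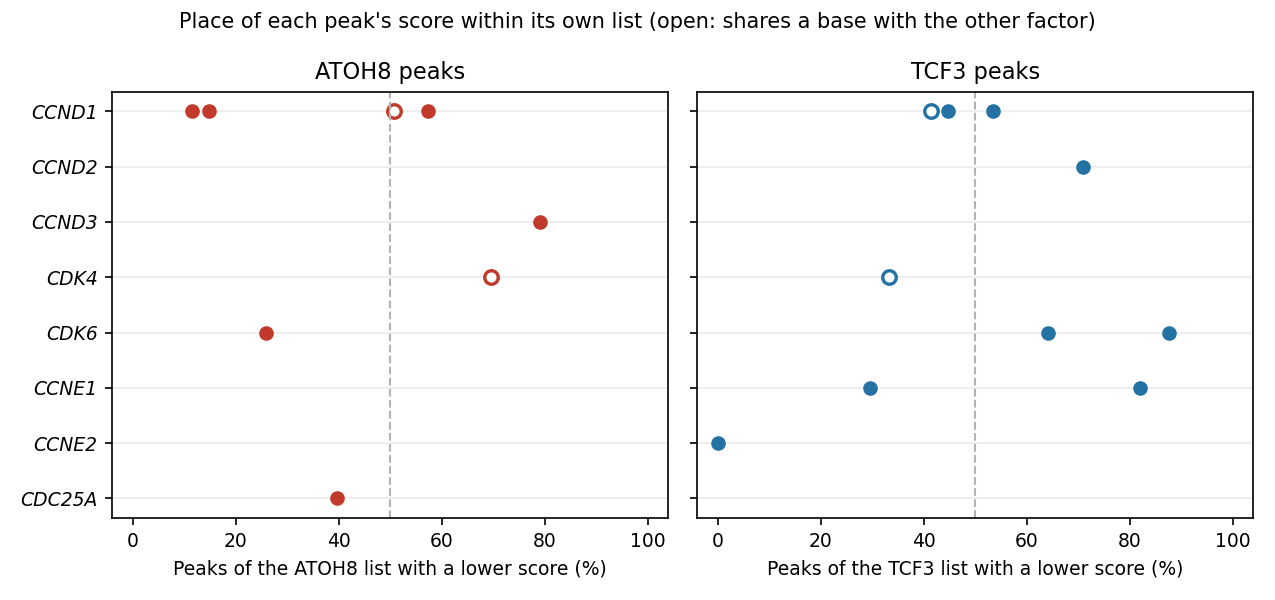
For each peak at the 8 genes, the share of its own list (ATOH8 left, TCF3 right) with a lower score, in percent; the dashed line is the middle of the list and open circles share a base with a peak of the other factor. The highest are the CCND3 peak for ATOH8 (79.1%) and the CDK6 peak for TCF3 (87.6%), and the CCNE2 peak lies at the bottom of the TCF3 list.

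By score, the peaks at these genes had medians near those of the peaks held in their lists. The 8 ATOH8 peaks scored 57 to 129, with a median of 80 against 84 over the whole ATOH8 list, and 4 of them were in the upper 50%. The 11 TCF3 peaks scored 36 to 131, with a median of 59 against 61 over the TCF3 list, and 5 were in the upper 50%. Median widths were 583 bp for ATOH8 against 709 bp over its list, and 816 bp for TCF3 against 718 bp. The midpoint was inside one of the 8 genes for 3 of 8 ATOH8 peaks, those at CCND1 and CDC25A, and for 4 of 11 TCF3 peaks, those at CDK6, CCNE1 and CCNE2. Most of the peaks counted at these genes were therefore outside them, including those in LTO1, TAF8, MARCHF9 and FAM133B. The window adds 50 kb on each side of genes with a median length of 23.9 kb. No matching share over all protein-coding genes is given, so this is not read as a trait of the 8 genes.

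A start of the gene itself was inside a TCF3 peak for 2 of the 5 genes with a matched window, CDK6 and CCNE1, against 12.6% of 15813 protein-coding genes. It was inside an ATOH8 peak for none of the 5, against 13.6%. CDC25A came within 21 bp. CCND1 was not among the 5, so the ATOH8 count leaves its start out, although its lower-coordinate end lay inside an ATOH8 peak.

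Sharing between the lists was found at CCND1 and CDK4 only. A base was shared with a TCF3 peak by 2 of 8 ATOH8 peaks (25%), against 28.5% of the whole ATOH8 list, and with an ATOH8 peak by 2 of 11 TCF3 peaks (18.2%), against 12.4% of the TCF3 list. A shared pair lay at 2 of 8 genes, against 15.9% of all protein-coding genes. Both pairs were beside a neighbour's start, at LTO1 and MARCHF9, and neither lay inside a cyclin or kinase gene. Over the whole lists, 53.3% of ATOH8 peaks and 26.6% of TCF3 peaks overlapped a RefSeq start window. The place of these pairs is therefore not read as a trait of the 8 genes.

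The rest of the pathway was counted over 33 other genes that govern G1 and S phase entry. These genes were chosen with earlier results of these data known, so their counts are description only. ATOH8 peaks lay within 50 kb of 23 of 33 and TCF3 peaks of 22 of 33, with both at 16, against the 43.6%, 53.7% and 28.1% of all protein-coding genes given above. All 7 genes for CDK inhibitors had a peak of one factor or the other, with ATOH8 at 6, TCF3 at 6 and both at 5, where 69.2% of all protein-coding genes had one or the other. Of the 33 genes, E2F8, CCNA2, CCNH and FBXW7 (4 in all) had neither, against 30.8% of all protein-coding genes. CDKN2A and CDKN2B are neighbours and were counted for the same ATOH8 peak and the same TCF3 peak. Of the 10 genes for E2F factors and their partners, 7 had ATOH8, 7 had TCF3 and 5 had both. All 3 genes for the phosphatases CDC25B and CDC25C and the kinase WEE1 had both. The pocket protein genes had ATOH8 at 2 of 3 and TCF3 at 1 of 3. The CDK-activating kinase had ATOH8 at 1 of 3 and TCF3 at 1 of 3, as did the set of CDK2, CCNA1 and CCNA2. Degradation genes had both at 3 of 4, all but FBXW7, which encodes the subunit that marks cyclin E for degradation.

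The highest ATOH8 scores in this list were far above those at the cyclin and kinase genes. They are the top of 44 pairs of a gene and a peak, against 8 such pairs at the 8 genes, so the maxima are not directly comparable. A peak of score 354 (rank 29) crossed the higher-coordinate end of RBL1, the gene for the pocket protein p107. Near E2F1, the gene for an activating E2F factor, an ATOH8 peak scored 337 but was inside ZNF341, 46365 bp from E2F1. Near RBL2, the gene for the pocket protein p130, a peak of score 269 was inside AKTIP, and near CDC25B one of score 241 crossed an end of AP5S1. The highest TCF3 scores came from 40 pairs of a gene and a peak, against 11 at the 8 genes. Those maxima are also not directly comparable. These scores were lower than the highest one at CDK6 and no higher than the highest one at CCNE1. They were 110 near E2F4, inside B3GNT9 and 42001 bp from E2F4, and 100 near E2F1, inside NECAB3. Scores of 89 were found inside E2F5 and inside TFDP1, which encodes the dimer partner of E2F factors, and beside SKP2, which encodes the subunit that marks p27 for degradation. The peaks in E2F5 and TFDP1 and that beside SKP2 shared a base with an ATOH8 peak.

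**Figure D4:**
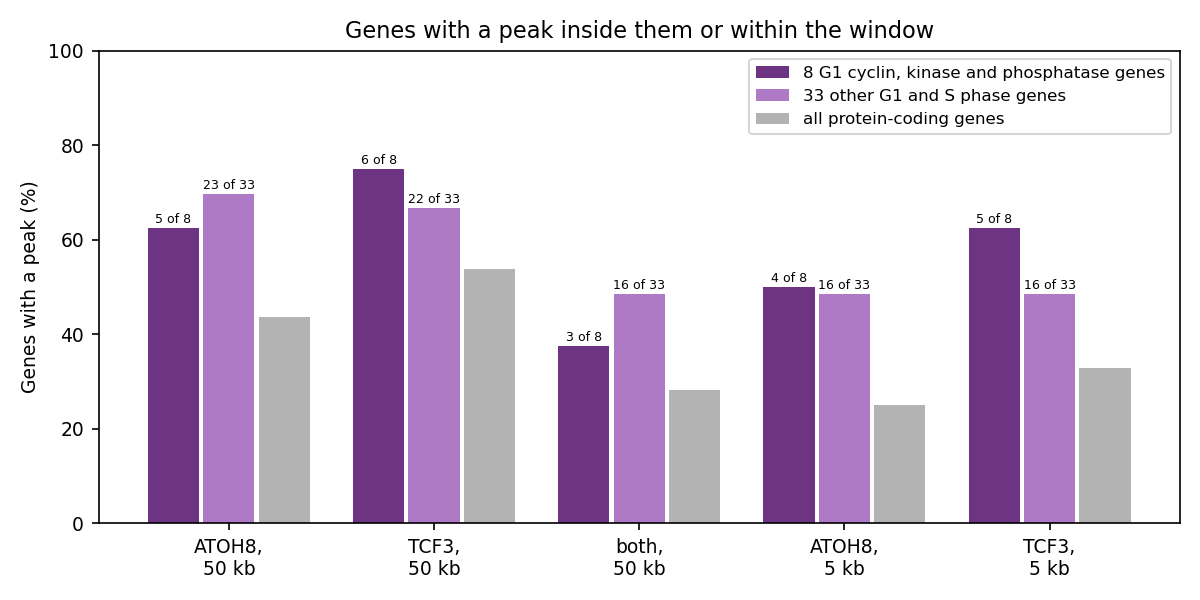
Share of genes, in percent, with a peak of ATOH8, of TCF3 or of both inside them or within 50 kb, and of each factor within 5 kb, for the 8 genes (dark), the 33 other G1 and S phase genes (light) and all protein-coding genes (grey); counts are printed above the bars. Both gene sets are above the grey bars in each column, without an error estimate, since each factor has 1 library. The 33 genes were chosen with earlier results of these data known, so their bars are description only.

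Within 5 kb, ATOH8 peaks lay at 4 of 8 genes, CCND1, CCND3, CDK4 and CDC25A, against 25.1% of all protein-coding genes, and at 16 of the 33 other genes. TCF3 peaks lay at 5 of 8, CCND2, CDK4, CDK6, CCNE1 and CCNE2, against 32.9%, and at 16 of the 33. CDK4 was then the one gene with both. The share of all protein-coding genes with both within 5 kb is not given, so this is not read as a trait of CDK4.

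The lists were held in part, which bears on any gene without a listed peak. Lines without a peak stood between scores of 996 and 356, 326 and 280, and 83 and 81 in the ATOH8 list. In the TCF3 list they stood between 887 and 280, 129 and 120, and 41 and 38, and after the last score of 35. Some of these lie among the scores of the peaks at these genes. The ATOH8 list also passed from 232 to 189 with no such line. Any peaks that belong there were not analysed here, so CCND2, CCNE1 and CCNE2 were not taken as unbound by ATOH8, nor CCND3 and CDC25A by TCF3. Ranks, medians and shares of a list refer to the peaks held. Read depth was unknown. The input libraries were not analysed here, and whether signal common to both libraries placed the shared pairs was not tested.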

How the data were processed

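Both lists give a chromosome, a start, an end, a strand that is plus throughout, and the authors' score per peak, as deposited. The definition of the score, the aligner, the peak caller, its threshold and the use of the inputs are not stated in the labels or lists. A list belongs to the factor in its name. The build is hg38 per the submitters' processing notes. Positions are printed as deposited. It is unknown if they start at 0 or 1, so a distance may be off by 1 bp. Gene positions and start windows came from RefSeq GRCh38.p14, whose primary chromosomes share hg38 coordinates. Lines without a peak were skipped.

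A peak was placed by its midpoint, distances run to the gene's nearer end unless a start is named, and sharing meant at least 1 bp. Names of the 8 genes were given, all were found, and the 33 pathway genes and the alternatives were chosen with earlier results of these data known. The pathway genes named by score are those with the 4 highest scores per factor. SKP2, tied at the last of them, and the other genes singled out in the pathway list were named after values were seen. With 1 library per group no test was made. Counting and overlap were tested on simulated peaks and returned what was planted. Python 3.11.15, numpy 2.4.6, pandas 2.3.3 and matplotlib 3.10.9 were used.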

Additional observations from a re-analysis of the deposited data

How the results depend on the processing

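No paired analysis was possible because each factor had 1 library and no test was made. Of 52 recomputed counts, 33 stayed within 1.5 times the reported one. With each peak given only to its nearest protein-coding gene, ATOH8 peaks lay at 2 of 8 genes (CCND1 and CDC25A, 4 peaks), TCF3 peaks at 4 of 8 (6 peaks), and 0 genes had both; the pathway genes fell to 11 with ATOH8 and 13 with TCF3. With the higher-scoring 50% of each list, 3 genes had ATOH8 (4 peaks), 5 TCF3 peaks were left, 1 gene (CCND1) had both, 0 ATOH8 and 0 TCF3 peaks shared a base, and 13 pathway genes had TCF3. Within 5 kb of the gene, or of either gene end, 6 TCF3 peaks were left and 1 gene had both, and 14 pathway genes had ATOH8 near an end. Within 100 kb, 5 genes had both. The share over all protein-coding genes is given only for the window of 50 kb and, for each factor taken alone, for that of 5 kb. Counts under the other settings, and of genes with both within 5 kb, therefore cannot be set against all genes. The sharing counts of 2 and 2 were the same with a reciprocal overlap of 50%, midpoints within 200 bp, edges within 500 bp, or without the top 1% of scores. Depth was unknown, so its limits could not be set.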
